A study of Procotyla fluviatilis with 12 samples.

Results

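In the freshwater planarian *Procotyla fluviatilis*, 735 of 149594 assembled transcript contigs were set apart in one kind of tissue only, the tissue next to a fresh cut in the body region labelled as proficient in regeneration. Of these, 686 were lower there and 49 were higher, while the 3 other kinds of tissue were at similar levels. The contigs were chosen by their measured reads, so the pattern itself is described here and not tested. A contig needed a mean of at least 1 CPM (a contig's reads scaled to the total reads of the library) over 12 libraries. The means of the other 3 groups had to lie within 1.5-fold of each other. The mean in the fourth group had to be at least 1.5-fold beyond the nearest of them, with each of its 3 libraries outside the range of the other 9.

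The 4 groups have 3 libraries each, and each library came from RNA of a pool of 3 adult worms taken from the field and held for a short time in culture. Reg+ amputated tissue came from worms cut anterior to the pharynx, the regeneration-proficient region, and was excised behind the wound after 24 hours. Reg+ uncut tissue came from the comparable site of worms that were not cut. Reg- amputated tissue was taken 24 hours after a cut posterior to the pharynx, the region labelled deficient, and Reg- uncut tissue came from the comparable posterior site. The excised tissue is a mixture of cell types, and fewer cells of one type cannot be told apart from less RNA per cell. The labels do not say whether the pools of a group were collected or processed separately, so p-values measure only the spread between these pools, which may be technical.

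Planarians rebuild missing parts from dividing stem cells called neoblasts, and the wound first switches on a response that many kinds of injury share before the tissue decides which part to replace. Signalling through Wnt and beta-catenin sets head against tail identity in planarians, and this polarity decides which end a wound rebuilds. A species in which one region regrows a head and another does not allows wounds of both kinds to be compared in the same animal. The files pair contigs with no gene name and no sequence, so no contig below is given a gene, a role or a sequence.

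Of all contigs, 41058 had a mean of at least 1 CPM, and in 30931 of those the means of Reg+ uncut, Reg- amputated and Reg- uncut tissue were within 1.5-fold of each other (called flat contigs below). Among the flat contigs the Reg+ amputated mean was beyond the fold limit in 166 that were higher and 1274 that were lower. The condition on single libraries then left 49 and 686. Of contigs with at least 1 CPM, the 3 Reg+ amputated libraries were all below the other 9 in 5.14% and all above them in 1.52%. Of flat contigs the shares were 5.85% and 1.86%. The fold rule and the library rule thus both left many more lower than higher contigs. How many more depended on the scaling. Over all flat contigs the median log2 ratio of the Reg+ amputated mean to the mean of the other groups was -0.07. With another scaling of the libraries (TMM) the rule gave 605 lower and 82 higher contigs.

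Library totals ran from 22038256 to 31266924 reads. Over contigs of at least 1 CPM, the mean Spearman correlation between libraries of a group was 0.967 for Reg+ amputated, 0.964 for Reg- uncut and 0.952 for Reg+ uncut libraries, above the mean correlation of each of these groups with any other group. Reg- amputated libraries were the exception, at 0.888 among themselves, with a lowest pair of 0.814, and 0.932 with Reg+ uncut libraries. Between groups, likeness followed neither region nor amputation: Reg+ amputated libraries were nearest to Reg- uncut libraries, at 0.955, against 0.867 with Reg+ uncut and 0.874 with Reg- amputated libraries. The labels were used as given, and whether the labels of whole groups were exchanged cannot be told from these files, so "Reg+ amputated" below means the libraries labelled so. Among the members, Reg- uncut was the group nearest to Reg+ amputated for 450 of the 686 lower and 32 of the 49 higher contigs. The share over all flat contigs was not counted, so these counts are not read as a trait of the members.

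Together the 686 lower contigs took 0.793%, 0.693% and 1.08% of reads in Reg+ amputated replicates 1, 2 and 3. In Reg+ uncut replicates 1, 2 and 3 they took 2.06%, 1.57% and 2.21%. Reg- amputated libraries held 1.44%, 2.11% and 2.02%, and Reg- uncut replicates 1, 3 and 4 held 1.60%, 1.64% and 1.91%. The Reg+ amputated libraries were thus below all others in the sum, as the choice of contigs requires, and replicate 3 stood above its own group. The means were 0.855% ± 0.2 in Reg+ amputated, 1.95% ± 0.334 in Reg+ uncut, 1.86% ± 0.365 in Reg- amputated and 1.71% ± 0.168 in Reg- uncut tissue (SD, n = 3). In the median lower contig, the level was 2.15-fold lower than in Reg+ uncut, 1.98-fold lower than in Reg- amputated and 1.81-fold lower than in Reg- uncut tissue.

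The 49 higher contigs were a much smaller part of the RNA. They took 0.0350%, 0.0366% and 0.0314% of reads in Reg+ amputated replicates 1, 2 and 3, and 0.0157% to 0.0217% in the other 9 libraries. In the median higher contig, the level was 1.92-fold that of Reg+ uncut, 1.78-fold that of Reg- amputated and 1.66-fold that of Reg- uncut tissue.

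**Figure D1:**
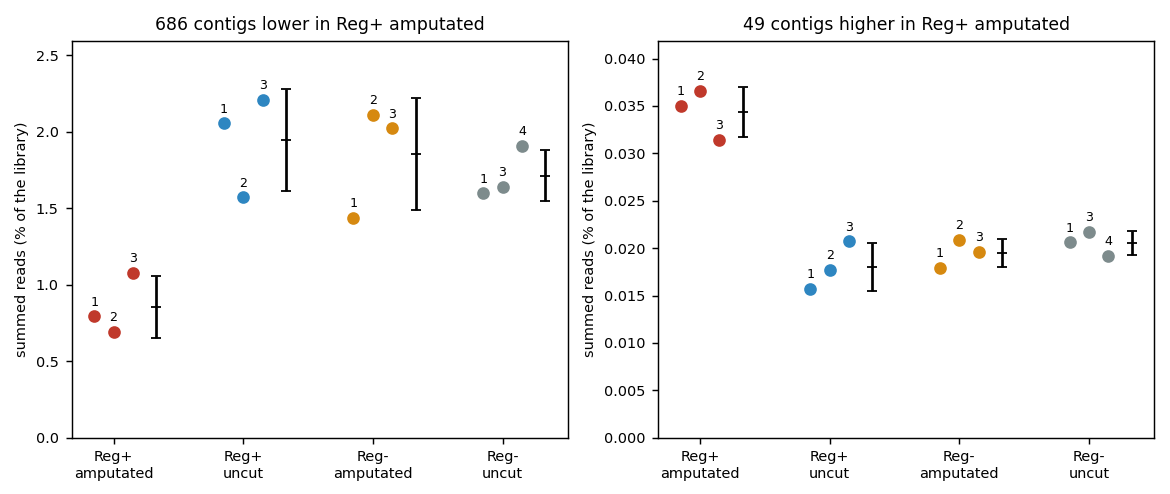
Summed reads of the 686 lower contigs (left) and the 49 higher contigs (right) as a percentage of each library's reads. Points are libraries with their replicate number, and bars give mean and SD (n = 3). Reg+ amputated replicate 3, at 1.08%, is the highest of its group for the lower contigs.

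The margins were modest. The margin of a contig is the fold between the Reg+ amputated mean and the nearest of the other 3 group means. Among lower contigs it had a median of 1.75 and a maximum of 3.62, with 184 contigs at 2-fold or more and 6 at 3-fold or more. Among higher contigs the median was 1.59 and the maximum 2.52, with 5 contigs at 2-fold or more. Single libraries were closer still: in 199 lower and 23 higher contigs the nearest libraries of the 2 sides differed by less than 1.1-fold, and 34 lower contigs and 0 higher contigs had a gap of at least 1.5-fold.

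Among the lower contigs, contig78535 (277 nt) had the largest margin, 3.62-fold. Its levels were 0.832, 0.862 and 1.11 CPM in Reg+ amputated replicates 1 to 3, from 26, 21 and 31 reads. The other 9 libraries ran from 2.26 CPM in Reg- amputated replicate 1 to 5.70 CPM in Reg+ uncut replicate 1. The group means were 0.933 ± 0.151 CPM in Reg+ amputated, 4.41 ± 1.60 in Reg+ uncut, 3.38 ± 1.66 in Reg- amputated and 3.83 ± 0.302 in Reg- uncut tissue (SD, n = 3), and no Reg+ amputated library came within 2-fold of another group.

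A lower contig that varied more was contig4168 (2767 nt), with a margin of 3.42. It stood at 9.50, 10.6 and 26.9 CPM in Reg+ amputated replicates 1 to 3. Reg+ uncut replicates 1 to 3 gave 103, 30.6 and 98.4 CPM, and Reg- amputated replicates 1 to 3 gave 30.2, 94.3 and 46.3 CPM. Reg+ amputated replicate 3 thus lay close to Reg- amputated replicate 1 and Reg+ uncut replicate 2. Reg- uncut tissue was even, at 53.6 ± 2.71 CPM (SD, n = 3).

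The short contig11558 (468 nt) was at 3.36, 3.20 and 7.89 CPM in Reg+ amputated replicates 1 to 3. The other libraries held 13.2 to 25.5 CPM, so that the groups were clearly apart although replicate 3 was more than 2-fold above its group's other libraries. The longer contig7612 (2681 nt) repeated this order, with 20.3, 22.4 and 64.3 CPM in Reg+ amputated replicates 1 to 3 and 83.4 to 153 CPM in the other libraries.

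Both contig127404 (1042 nt) and contig14558 (3049 nt) had even Reg+ amputated levels and uneven levels elsewhere. For contig14558 the Reg+ amputated libraries gave 10.9, 10.8 and 14.3 CPM. Reg- amputated replicates 1 to 3 gave 21.4, 31.8 and 67.1 CPM, and Reg+ uncut tissue was at 45.2 ± 14.1 CPM (SD, n = 3). For contig127404 the Reg+ amputated libraries gave 2.27, 2.26 and 2.93 CPM against 4.61 to 15.7 CPM in the others. Reg- amputated replicate 3 was the highest library for both, and neither overlapped with Reg+ amputated tissue.

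The remaining lower contigs of large margin rested on few reads. In contig134372 (555 nt), 6, 4 and 22 reads gave 0.192, 0.164 and 0.786 CPM in Reg+ amputated replicates 1 to 3, against 0.968 to 2.27 CPM elsewhere. In contig91818 (228 nt), 8, 5 and 32 reads gave 0.256, 0.205 and 1.14 CPM, and Reg- amputated replicate 1 came as near as 1.16 CPM. For contig91818 the library condition was therefore met narrowly in replicate 3.

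**Figure D2:**
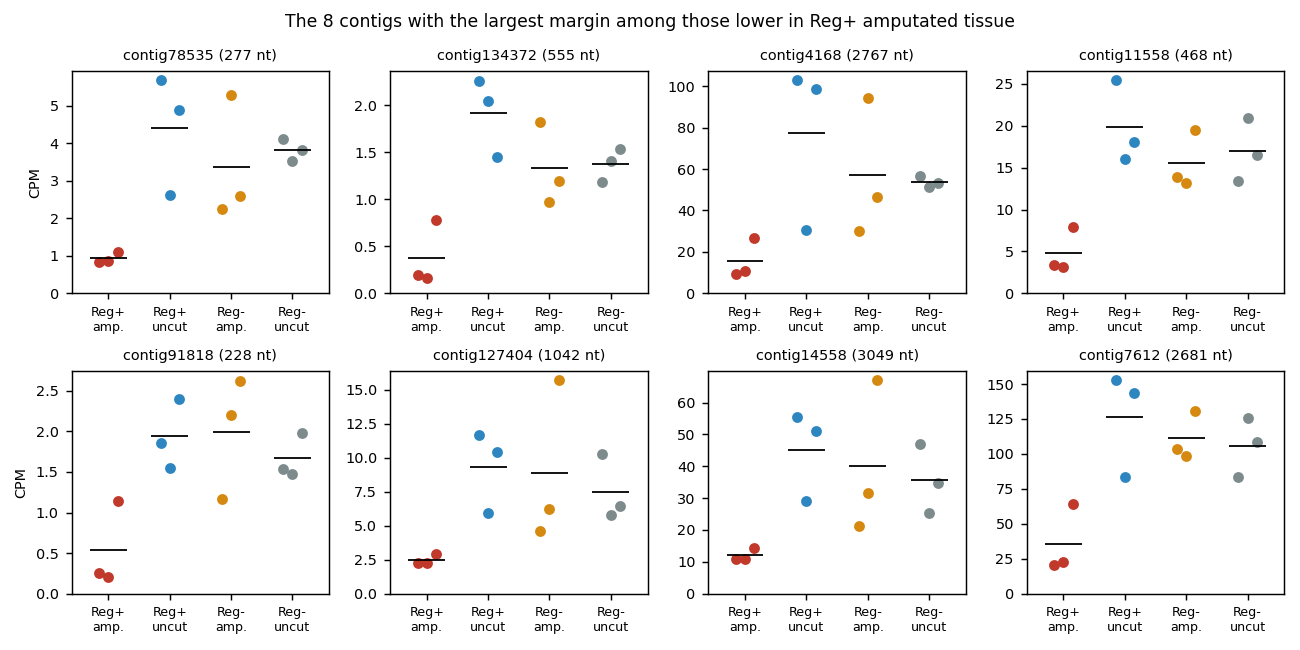
Levels in CPM of the 8 lower contigs with the largest margin, by group. Points are the 3 libraries of a group in the order of their replicate numbers, and lines are group means. Reg+ amputated replicate 3, the right point of the first group, is the highest of its group in each panel, from 0.786 CPM for contig134372 to 64.3 CPM for contig7612.

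The most abundant lower contig was contig2918 (5958 nt). It was at 1202, 945 and 1663 CPM in Reg+ amputated replicates 1 to 3. The other libraries ran from 1748 CPM in Reg- amputated replicate 1 to 5075 CPM in Reg- amputated replicate 2. Its 3 other group means were 3033 ± 993, 3869 ± 1843 and 3059 ± 364 CPM in Reg+ uncut, Reg- amputated and Reg- uncut tissue (SD, n = 3). The spread of Reg- amputated tissue alone was larger than the Reg+ amputated mean of 1270 ± 364 CPM.

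The next most abundant was contig4161 (7466 nt), at 460, 408 and 711 CPM in Reg+ amputated replicates 1 to 3 and 849 to 1192 CPM elsewhere. Of its reads 70.0% were uniquely assigned, so the rest could also match other contigs. More even were contig15184 (2868 nt) and contig4817 (2854 nt). The former stood at 204, 168 and 196 CPM in Reg+ amputated tissue against 292 to 593 CPM, and the latter at 185, 182 and 260 CPM against 271 to 461 CPM. Per length, contig2918 was at 213 RPKM (CPM divided by contig length in kilobases, as deposited) in Reg+ amputated tissue, contig4817 at 73.2, contig4161 at 70.5 and contig15184 at 65.9.

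Among the higher contigs, contig3731 (293 nt) had the largest margin, 2.52-fold. Its Reg+ amputated libraries gave 2.72, 3.45 and 3.89 CPM. The other 9 ran from 0.531 CPM in Reg- amputated replicate 1 to 2.32 CPM in Reg- uncut replicate 3. Its levels outside Reg+ amputated tissue therefore varied more than 4-fold between libraries although the group means were flat, at 0.927 ± 0.294, 1.23 ± 0.803 and 1.33 ± 0.854 CPM in Reg+ uncut, Reg- amputated and Reg- uncut tissue (SD, n = 3).

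In contig127990 (679 nt) the Reg+ amputated libraries were at 4.57, 3.24 and 4.46 CPM and the others at 0.431 to 2.85 CPM. In contig54512 (459 nt) they were at 3.998, 3.69 and 4.03 CPM against 0.133 to 2.48 CPM, and in contig12577 (1007 nt) at 9.31, 7.02 and 7.61 CPM against 0.232 to 5.57 CPM. For all 3 the lowest library was Reg- amputated replicate 1, and within Reg- amputated tissue replicate 3 was the highest. Flat group means in these contigs thus covered a wide range within one group.

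Libraries of Reg+ amputated tissue differed most in contig78051 (578 nt) among these 8 contigs, where Reg+ amputated replicate 1 with 3.998 CPM stood above replicates 2 and 3 with 1.72 and 1.61 CPM, and the other libraries held 0.590 to 1.53 CPM. In contig138662 (594 nt) the Reg+ amputated libraries gave 13.3, 14.2 and 11.1 CPM and the other libraries 2.95 to 8.05 CPM. In contig56391 (578 nt) they gave 2.33, 2.75 and 4.03 CPM against 0.986 to 2.17 CPM. In contig93983 (222 nt) they gave 5.69, 5.58 and 3.96 CPM against 1.101 to 3.58 CPM.

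**Figure D3:**
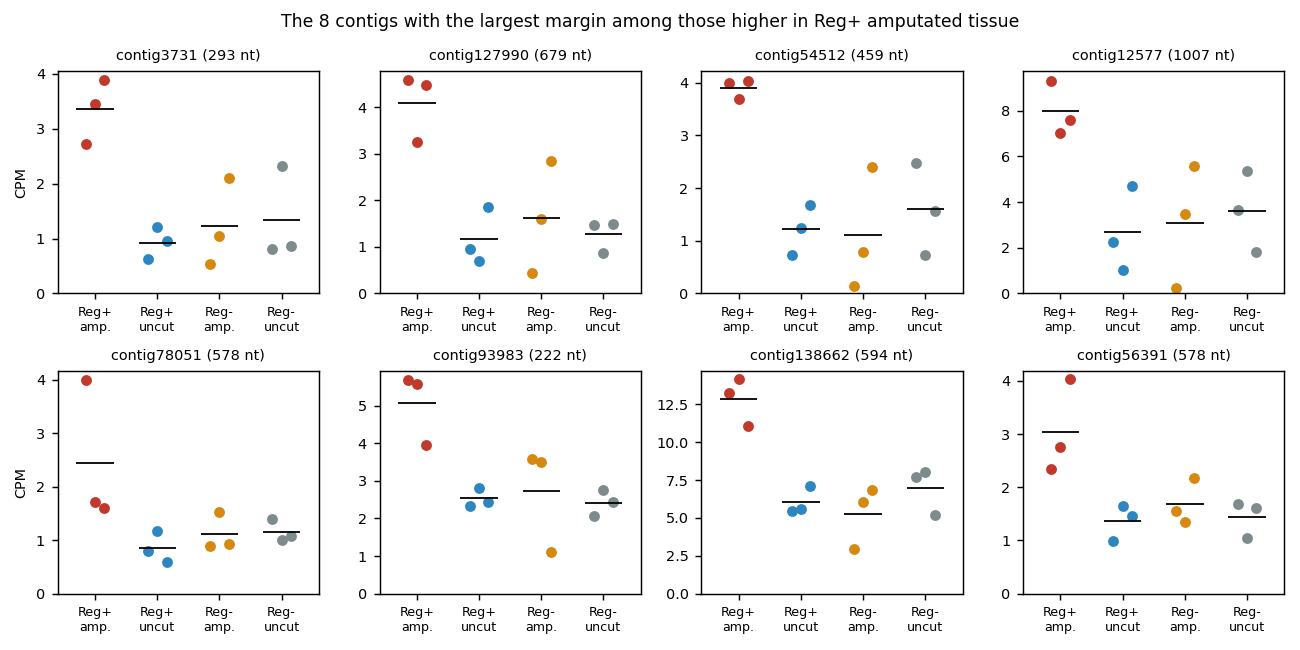
Levels in CPM of the 8 higher contigs with the largest margin, by group. Points are the 3 libraries of a group in the order of their replicate numbers, and lines are group means. Reg+ amputated libraries lie above all others, most narrowly for contig78051. For contig56391 the nearest libraries are at 2.33 and 2.17 CPM.

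The most abundant higher contigs were contig97224, contig140397, contig15974 and contig137635. In contig97224 (213 nt) the Reg+ amputated libraries held 51.3, 63.4 and 47.1 CPM and the others 17.8 to 44.9 CPM. In contig140397 (1707 nt), the longest higher contig, they held 37.1, 47.8 and 30.5 CPM against 14.8 to 27.9 CPM. The gap was smallest in contig15974 (934 nt), where the lowest Reg+ amputated library had 25.6 CPM and the highest other library 25.4 CPM. In contig137635 (167 nt) the levels were 22.5, 28.1 and 21.6 CPM against 7.64 to 17.3 CPM.

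Close to the limit of 1.5-fold, the contigs just inside were contig7714 and contig118480 among the lower and contig141073 and contig70148 among the higher, with margins of 1.5007, 1.5004, 1.5037 and 1.5031. Just outside, with every other condition met, were contig56816 and contig15001 on the lower side at 1.4998 and 1.4997, and contig70277 and contig145553 on the higher side at 1.4992 and 1.4984. In contig56816 (846 nt) the Reg+ amputated mean was 1.11 ± 0.096 CPM, against 2.35 ± 0.076 in Reg+ uncut, 2.06 ± 0.234 in Reg- amputated and 1.66 ± 0.11 in Reg- uncut tissue (SD, n = 3). None of its Reg+ amputated libraries, at most 1.21 CPM, reached the lowest other library, at 1.54 CPM.

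Contig length, which the rule did not use, differed between the sets. The lower contigs had a median length of 939 nt, the higher contigs 394 nt, and all flat contigs 754 nt. Of flat contigs up to 250 nt long, 2.33% were lower contigs. This share was 1.74% between 500 and 1000 nt, 3.35% between 2000 and 3000 nt, 5.52% between 3000 and 5000 nt and 11.5% (19 of 165) above 5000 nt. Higher contigs went the other way, with 0.421% of flat contigs up to 250 nt and 0.0% above 2000 nt.

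The level of long contigs as a whole moved in the same direction. Among all flat contigs, the median log2 ratio of the Reg+ amputated mean to the mean of the other groups was -0.02 up to 250 nt and -0.39 above 5000 nt. With the members left out it was -0.01 and -0.33. The libraries did not share this evenly. Above 5000 nt the median deviation from the 12-library mean was -0.30 and -0.52 (log2) in Reg+ amputated replicates 1 and 2, but -0.04 in replicate 3. It was 0.28 and 0.34 in Reg+ uncut replicates 1 and 3 and 0.28 in Reg- amputated replicate 3. When each library was centred on contigs of like length, the rule gave 636 lower contigs, of which 574 were among the 686, and 48 higher contigs, of which 40 were among the 49.

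**Figure D4:**
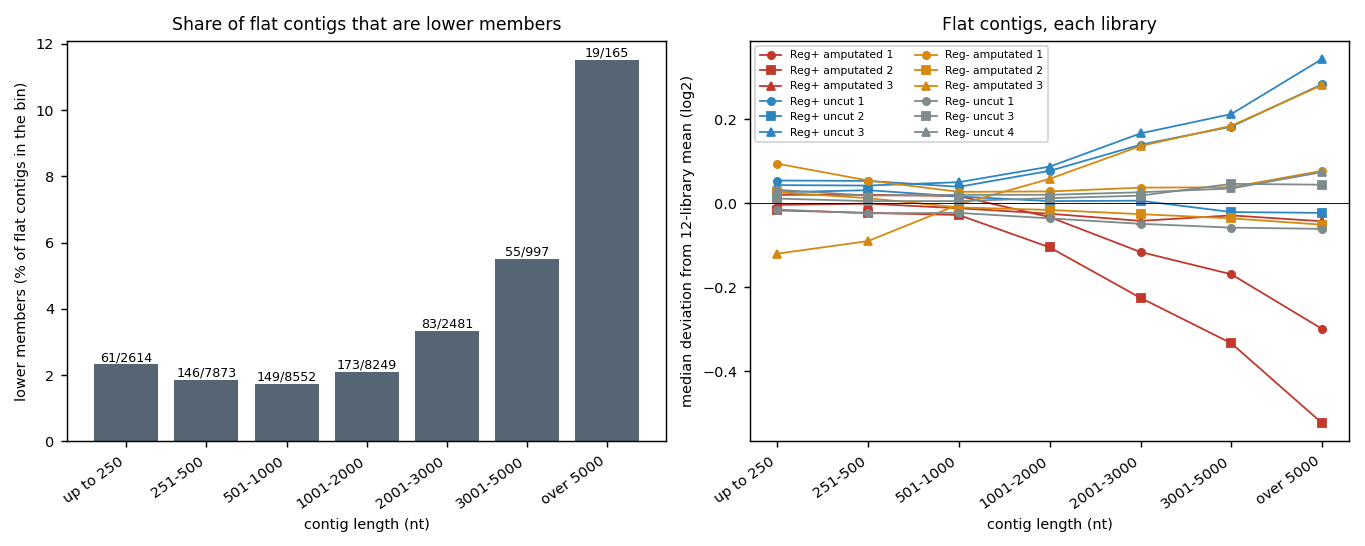
Left, lower contigs as a percentage of the flat contigs in each bin of contig length (nt), with their numbers. Right, the median log2 deviation from the 12-library mean of flat contigs in each length bin, one line per library. The share of lower contigs reaches 11.5% above 5000 nt, where Reg+ amputated replicates 1 and 2 lie at -0.30 and -0.52.

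Abundance differed little between lower and flat contigs, with medians of 5.15 and 6.22 CPM, whereas the median of the higher contigs was 1.99 CPM. Over quartiles of mean CPM, 2.52% of the least abundant flat contigs and 1.91% of the most abundant were lower contigs. Of the 49 higher contigs, 33 were in the lowest quartile, up to 2.45 CPM, and 3 in the highest, which is 0.427% and 0.0388% of the flat contigs there. The mean CPM behind the minimum level and the quartiles included the Reg+ amputated libraries, which are high in these contigs by choice. A contig near the minimum could pass through its Reg+ amputated reads, which favours higher contigs there. How much this added to the difference in abundance was not tested. Reads were mostly uniquely assigned, with a median of 99.6% in lower and 99.8% in higher contigs, against 99.6% in flat contigs. Fewer than 90% of reads were unique in 63 lower contigs (9.18%), 3 higher contigs (6.12%) and 6.66% of flat contigs.

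Some members kept nearly fixed ratios to each other across the 12 libraries. These were picked after their values had been seen, among members with a mean of at least 5 CPM. The level of contig14558 was 4.27 to 5.37 times that of contig127404, although contig14558 itself ran from 10.8 to 67.1 CPM. The level of contig4161 was 8.60 to 10.2 times that of contig2856 and 16.2 to 19.5 times that of contig7560. The level of contig7612 was 0.351 to 0.454 times that of contig36688 (9187 nt). The SD of the log2 ratio was 0.0898, 0.0679, 0.0806 and 0.122 in these pairs, against a median of 0.319 over all 61075 pairs of such lower contigs. Each pair ranked 1 or 2 by this SD among the 349 candidates of a named contig, and that choice favours an SD below the median. An assembly can split one transcript into several contigs, so members need not all be separate genes.

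A similar group was found among the higher contigs. The level of contig97224 was 2.18 to 2.87 times that of contig137635 and 3.73 to 5.88 times that of contig137329 (314 nt). Reads of contig97224 and contig137635 were uniquely assigned for 83.8% and 73.5%, so the rest of their reads could also match other contigs. The pairs contig38811 with contig38812 and contig138662 with contig138663, adjacent by number, were both among the 49 higher contigs. Of the 39 flat contigs whose number is next to that of a higher contig, these 4 (10.3%) were higher contigs, against 0.158% of all flat contigs. Among flat contigs whose number is next to that of a lower contig, 2.47% were lower contigs themselves, against 2.22% of all flat contigs.

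Within groups, the first principal component of the deviations from group means held 47.5% of the variance in lower and 45.9% in flat contigs. In higher contigs it held 59.6%. This share does not say whether contigs moved in the same direction. The median deviation (log2) of lower contigs was -0.266 in Reg+ amputated replicate 2 and 0.317 in replicate 3, against -0.052 and 0.032 in flat contigs. In Reg+ uncut replicate 2 it was -0.258 against -0.037, and in Reg- amputated replicate 3 it was 0.012 against -0.016. The order of the libraries also differed. Reg+ amputated replicate 3 was the highest of its group in 80.6% of lower contigs, against 42.5% of flat contigs, and replicate 2 was the lowest in 73.5% against 47.9%. In Reg+ uncut tissue replicate 2 was the lowest in 81.5% of lower contigs and 42.3% of flat contigs. In Reg- amputated tissue replicate 1 was the lowest in 52.2% against 31.7%. The rule used these same values, so the shares have no test. Reg+ amputated replicate 3 set the size of the list: without it the rule gave 1732 lower and 128 higher contigs, which included 671 of the 686 and 45 of the 49.

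Higher contigs varied most within Reg- amputated tissue, whose libraries were also the least alike over contigs of at least 1 CPM. Replicate 3 of that group was the highest in 32 (65.3%) and replicate 1 the lowest in 30 (61.2%) of the 49. Among flat contigs these shares were 36.0% and 31.7%. In 20 of the 49 higher contigs, Reg- amputated replicate 3 was also the library nearest to Reg+ amputated tissue. Without Reg- amputated replicate 1 the rule gave 33 higher contigs, 28 of them in common. Without Reg- amputated replicate 3 it gave 65, with 36 in common.

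All members were among the 62408 contigs with enough reads for the edgeR quasi-likelihood fit. The rule had used every library of these comparisons, and the comparisons share libraries, so the counts are given without a reading. A contig was called where its two-sided p, after Benjamini-Hochberg adjustment over all contigs, was under 0.05. Against Reg+ uncut tissue, 480 of 686 lower contigs were called lower (4.35% of all contigs tested were called lower) and 23 of 49 higher contigs were called higher (2.09%). The median log2 fold change was -1.02 in the lower and 1.03 in the higher contigs, against -0.02 over all contigs. DESeq2 called 564 lower (5.92%) and 33 higher contigs (3.99%). These edgeR counts fell to 148 and 7 without Reg+ amputated replicate 1, to 163 and 4 without Reg+ amputated replicate 2, to 187 and 4 without Reg+ uncut replicate 1, and to 284 and 10 without Reg+ uncut replicate 3. Without Reg+ uncut replicate 2 they were 400 and 10, and without Reg- amputated replicate 3 they were 598 and 35. With only the 2 groups in the fit they were 453 and 35, and without the filter on low counts 352 and 15. Over all contigs, calls in both directions together numbered 4019 in the first edgeR fit. From the fit without Reg+ amputated replicate 1 on, in the same order, they numbered 1747, 1753, 1944, 2647, 2935, 7699, 6367 and 2845.

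Against Reg- amputated tissue, edgeR called 280 lower (2.38% of all contigs were called lower) and 10 higher contigs (0.965%), with median log2 fold changes of -0.92 and 0.90, against 0.00 over all contigs. DESeq2 called 465 lower (3.83%) and 15 higher contigs (1.54%). With only these 2 groups in the edgeR fit, 10 lower and 0 higher contigs were called, and without the filter on low counts 162 and 3. The edgeR count was 32 and 3 without Reg+ amputated replicate 1 and 34 and 0 without Reg+ amputated replicate 2. It was 51 and 3 without Reg- amputated replicate 2, and 449 and 16 without Reg- amputated replicate 3. Leaving out Reg- amputated replicate 1 gave 294 and 3. Leaving out Reg+ uncut replicate 1 gave 178 and 7, and Reg- uncut replicates 1, 3 and 4 gave 190 and 5, 233 and 6, and 175 and 7. Over all contigs, calls in both directions together numbered 2085 in the first edgeR fit. From the 2-group fit on, in the same order, they numbered 869, 1686, 1088, 1060, 1279, 5525, 2153, 1681, 1706, 1815 and 1642.

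Against Reg- uncut tissue edgeR called none of the members and none of the 62408 contigs, a share of 0.0%. At an unadjusted p under 0.05 this edgeR comparison had 5792 of the 62408 contigs, both directions together. Among them were 665 of the 686 lower and 42 of the 49 higher contigs in the direction of their set, which the rule favours. The share over all contigs was not counted by direction. DESeq2 called 542 contigs, among them 250 lower contigs (0.707% of all contigs were called lower) and 4 higher contigs (0.162%). The median log2 fold change of the lower contigs was -0.82 and that of the higher contigs 0.77, against 0.00 over all contigs. Leaving out Reg+ amputated replicate 3, edgeR called 29 contigs, 21 of them lower contigs. Without Reg- amputated replicate 3 it called 10, of which 1 was a lower contig, and without Reg+ uncut replicate 3 it called 2, none of them a member. With only the 2 groups in the fit it called 11, of which 3 were lower contigs.

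Against the mean of the other 3 groups, edgeR called 475 lower contigs (2.49% of all contigs were called lower) and 31 higher contigs (1.26%), and DESeq2 called 621 (4.6%) and 41 (2.16%). Without the filter on low counts the edgeR counts were 340 and 20. The edgeR counts were 54 and 4 without Reg+ amputated replicate 1, 41 and 1 without replicate 2, and 430 and 19 without replicate 3. They were 632 and 45 without Reg- amputated replicate 3 and 313 and 17 without Reg+ uncut replicate 1. Without Reg- uncut replicates 1 and 4 in turn they were 334 and 19, and 275 and 17, and without Reg- uncut replicate 3 the higher count was 20. Over all contigs, calls in both directions together numbered 2346 in the first edgeR fit. From the fit without the filter on, in the same order, they numbered 1686, 636, 553, 2404, 6752, 1589, 1544, 1381 and 1752.

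Between Reg- amputated and Reg- uncut tissue, whose means the rule held within 1.5-fold of each other, edgeR called 0 members in the direction of their set, where 0.995% of all contigs were called lower and 1.62% higher. There 4 lower contigs and 0 higher contigs had an unadjusted p under 0.05 in that direction, against 6467 of all 62408 contigs in both directions together. DESeq2 called 1 lower contig (1.45% of all contigs were called lower) and 0 higher contigs (2.16%). The difference between the amputation responses of the 2 regions, an interaction, was called by edgeR for 251 lower (4.42%) and 11 higher contigs (3.01%), and by DESeq2 for 380 (5.91%) and 16 (4.11%). Without the filter on low counts edgeR called 132 and 5. The edgeR counts were 89 and 4 without Reg+ amputated replicate 1 and 455 and 21 without Reg- amputated replicate 3. Leaving out any 1 library except Reg+ amputated replicate 3 moved at least 1 of these counts by more than 1.5-fold.

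The same rule was applied with each of the other groups in turn as the one set apart. It gave 55 higher and 19 lower contigs for Reg+ uncut, 9 and 12 for Reg- amputated, and 72 and 77 for Reg- uncut tissue. Contigs with the 3 remaining groups within 1.5-fold of each other numbered 30956, 26590 and 27417, against 30931 for Reg+ amputated tissue. On group means alone, Reg+ uncut tissue had more lower contigs than Reg+ amputated tissue, 1691 against 1274. Of these 1691, Reg- amputated replicate 1 was the lowest of the 9 other libraries in 1631, and 1.12% passed the condition on single libraries, against 53.8% for Reg+ amputated tissue. The condition on single libraries is harder to meet in a group whose libraries differ more. Mean correlations within groups ran from 0.888 in Reg- amputated to 0.967 in Reg+ amputated tissue. How much this added to the differences in count was not tested, and the counts have no test.

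**Figure D5:**
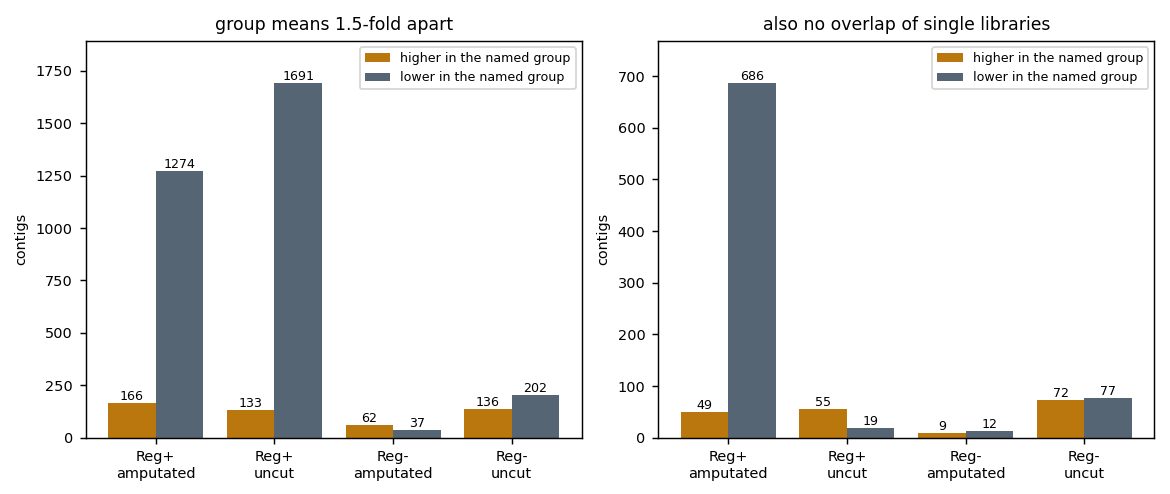
Number of contigs set apart in each group by the same rule, on group means alone (left) and with the condition that no single library overlaps (right). Bars are counts of contigs higher or lower in the named group. Lower contigs of Reg+ amputated tissue number 1274 and 686, those of Reg+ uncut tissue 1691 and 19.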

How the data were processed

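The authors deposited one table per library, and per the file headers each gives for every contig its length, its uniquely assigned and its total reads as counts, and RPKM. Counts are whole numbers and not normalized. The deposited RPKM equal total reads per contig length and column total to within 0.0078, and were used only to compare contigs of different length. The transcriptome was assembled de novo per the series' design text. How reads were aligned, counted and assigned when several contigs matched is not stated in the labels or file headers. CPM are total reads over the column sum. Members and lists were chosen with earlier results of these data known, and lists of genes by name could not be used because contigs carry none. The named contigs are, in each direction, the 8 with the largest margin, the 4 most abundant, and the 2 nearest to the limit on each side. Total reads were tested with edgeR 4.0.16 in R 4.3.3 (filterByExpr, TMM factors of 0.9075 to 1.092, 1 quasi-likelihood fit, 4 group means, 62408 contigs, checked on simulated data), with Benjamini-Hochberg adjustment over all of them. DESeq2 1.42.0 was an alternative. Log2 deviations used a pseudocount of 0.1 CPM. No 2 libraries of a group agreed within sampling noise (chi-square per degree of freedom of 9.68 or more).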

Additional observations from a re-analysis of the deposited data

Results flagged for a closer look

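With 3 libraries a group, no group was tested for a single outlying sample. Of the libraries left out in turn, Reg- amputated replicate 3 moved the edgeR interaction calls most, from 4634 to 12429. Of the 32 named contigs, 7 were called by edgeR's interaction test, for an amputated-minus-uncut difference that was not the same in the 2 regions. Over all contigs tested, 3.01% were called higher and 4.42% lower. The rule that chose the contigs favours such calls and used the same libraries, so the adjusted p below are no separate support. The interaction was 1.63 (log2) for contig138662, 1.34 for contig140397 and 0.99 for contig70148, with adjusted p of 0.0328, 0.0345 and 0.0388. It was -1.94 for contig78535, -1.80 for contig11558 and -1.03 for contig4161, with adjusted p of 0.0434, 0.0300 and 0.0374. In contig56816, just outside the limit, it was -1.27 with an adjusted p of 0.00787.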

How the results depend on the processing

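The list depended on its limits. In place of 49 higher contigs, the rule gave 82 with TMM scaling, 77 with DESeq2 size factors, 11 at a minimum of 5 CPM, 5 at 2-fold, 25 with a tighter limit on the other groups and 166 without the condition on single libraries. In place of 686 lower contigs it gave 605 with TMM scaling and 617 with DESeq2 size factors. In the last 4 of these settings it gave 350, 184, 357 and 1274 lower contigs. Leaving out 1 library gave 33 to 128 higher and 563 to 1732 lower contigs, both highest without Reg+ amputated replicate 3. Centring on length was chosen after seeing the data.

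By edgeR, 4019 contigs were called against Reg+ uncut (6184 by DESeq2, 6367 with only these 2 groups, 1747 to 7699 leaving out 1 library). Against Reg- amputated there were 2085 (3349, 869 and 1060 to 5525 in the same order), and against the mean of the others 2346 (4219 by DESeq2, 553 to 6752 leaving out 1 library). Against Reg- uncut there were 0, with 542 by DESeq2, 11 with 2 groups, 10 without the filter on low counts and 0 to 29 leaving out 1 library. Between Reg- amputated and Reg- uncut there were 1632 (1045 with 2 groups, 1133 to 1857 leaving out 1 library), and for the interaction 4634 (2905 to 12429). No named contig changed direction, an outcome that the rule behind their choice favours. Against the mean of the others, 20 of the 32 named contigs were no longer called by edgeR without Reg+ amputated replicate 1. Without Reg+ amputated replicate 2 the number was also 20.

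The labels give the replicate numbers no shared source. Deviations of same-numbered libraries correlated at -0.096 to 0.263 between Reg+ amputated and the other groups, so the numbers were not taken to pair those comparisons. They correlated at 0.34, 0.145 and 0.577 between Reg+ uncut and Reg- amputated. These 2 groups were not compared directly, but both enter the interaction and the mean of the other groups. The fit without a block took their libraries as independent there. Reg- uncut shares only 2 numbers with each other group. Its correlations were 0.293 and 0.351 with Reg- amputated and -0.046 and 0.335 with Reg+ uncut. With the replicate number as a block, the calls in the order above were 4889, 2092, 1784, 4, 1327 and 4787. Against the mean of the others, the block called 284 lower and 17 higher members in place of 475 and 31. For the interaction it called 182 lower and 11 higher members in place of 251 and 11.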
